A study of Mus musculus with 22 samples.

Results

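Oxidative phosphorylation (OXPHOS) genes were followed across 22 RNA-seq libraries of mouse mpkCCD cells. The rows of the authors' expression table were searched for the gene names of complexes I to V (Nduf, Sdha to Sdhd, Uqcr, Cox4 to Cox8, Atp5 and the mitochondrially encoded mt-Nd, mt-Co, mt-Cytb and mt-Atp genes). Of 127 matching rows, 14 carried a pseudogene name ending in -ps and 19 had a mean below 1 TPM over the 22 libraries. The remaining 94 genes, of 54514 entries in the table, comprise 87 nuclear and 7 mitochondrially encoded genes. The nuclear genes fall into complex I (37), complex II (4), complex III (8), complex IV (12) and complex V (17), with 9 assembly factors and regulators (Ndufaf1 to Ndufaf8 and Cox7a2l) counted apart. TPM is a level per transcript length, scaled to the same total in each library. Levels can thus be set side by side between genes, except where near-identical copies make a value uncertain (below).

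mpkCCD is an immortalised line from the cortical collecting duct of the mouse kidney, here the single subclone mpkCCDC11-38 grown on permeable supports. After growth in medium with serum and growth factors, the cells of every group were moved to a simple serum-free medium that still held 50 nM dexamethasone, selenite and transferrin. Unsorted wild-type (WT) cells were left without dDAVP (3 libraries) or received dDAVP (3 libraries), the desmopressin agonist of the vasopressin V2 receptor. The labels give no strain, age or genotype beyond WT and GFP reporter. They name 0.1 and 1 nM dDAVP for 24 or 48 hours without assigning a dose or time to a library. The other 16 libraries came from 4 clones carrying a GFP reporter (C1, C11, C43, C50), treated with dDAVP in all cases, with 2 libraries of GFP-negative and 2 of GFP-positive cells each. Each clone is 1 line, and the labels do not name the promoter that drives GFP. Nothing states that replicates were separate cultures, so p-values measure the spread between these libraries only.

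The respiratory chain passes electrons from NADH (complex I) or succinate (complex II) through complex III to oxygen at complex IV, and complex V (ATP synthase) uses the proton gradient this builds to make ATP. Complexes I, III, IV and V are assembled from subunits of both genomes, while every subunit of complex II is nuclear. Nuclear subunit genes are known for promoter motifs of NRF1, ETS-family factors such as GABP, and YY1, whereas mitochondrial DNA is transcribed by its own polymerase from promoters within that DNA. In the kidney tubule this pathway supplies much of the ATP for ion transport.

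The 3 motifs were searched on both strands in RefSeq promoters of GRCm38.p6, from 250 bases before to 50 after each annotated start. Symbols matched for 74 of the 94 genes, with 79 promoters. The NRF1 letters GCGCATGCG were in 12.7% of these promoters, against 1.75% of all 32851 promoters of the same length. The ETS letters CCGGAAG were in 24.1% against 8.86% of all, and the YY1 letters AAGATGGCG in 10.1% against 1.4%. The 3 strings do not contain each other, and an NRF1 match on both strands overlaps itself. The upstream 250 bases of 5 genes that recur below are printed 5′ to 3′ on the gene's strand, with matches in capitals, because they show how different these promoters are in the letters searched. Cox6a1 (chr5:115348959-115349208, minus strand) holds an NRF1 match and, on the opposite strand, an ETS match. Ndufaf4 (chr4:24897833-24898082, plus strand) holds an NRF1 match, and Sdhd (chr9:50603850-50604099, minus strand) an ETS match on the opposite strand. Atp5b (chr10:128083057-128083306, plus strand) and Cox5a (chr9:57520982-57521231, plus strand) hold none of the 3 strings in this window. A match describes the letters only and is not evidence of a bound site.
Cox6a1: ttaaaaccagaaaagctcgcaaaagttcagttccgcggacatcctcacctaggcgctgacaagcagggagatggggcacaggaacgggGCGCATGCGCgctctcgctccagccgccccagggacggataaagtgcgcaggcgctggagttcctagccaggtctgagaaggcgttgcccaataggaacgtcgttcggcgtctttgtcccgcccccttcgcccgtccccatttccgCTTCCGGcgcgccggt
Ndufaf4: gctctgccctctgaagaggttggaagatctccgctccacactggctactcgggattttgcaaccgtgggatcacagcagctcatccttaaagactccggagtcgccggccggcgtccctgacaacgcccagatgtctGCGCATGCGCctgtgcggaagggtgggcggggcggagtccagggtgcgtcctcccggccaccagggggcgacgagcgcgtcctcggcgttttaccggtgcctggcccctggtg
Sdhd: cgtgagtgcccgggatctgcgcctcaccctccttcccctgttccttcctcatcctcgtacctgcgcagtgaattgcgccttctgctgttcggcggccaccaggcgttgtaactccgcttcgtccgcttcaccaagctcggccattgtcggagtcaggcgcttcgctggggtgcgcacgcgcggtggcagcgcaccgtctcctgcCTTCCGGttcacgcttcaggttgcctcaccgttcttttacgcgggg
Atp5b: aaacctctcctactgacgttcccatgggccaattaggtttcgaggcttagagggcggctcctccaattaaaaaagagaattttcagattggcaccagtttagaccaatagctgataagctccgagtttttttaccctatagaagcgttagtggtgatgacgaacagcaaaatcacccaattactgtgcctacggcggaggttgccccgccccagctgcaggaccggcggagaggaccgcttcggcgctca
Cox5a: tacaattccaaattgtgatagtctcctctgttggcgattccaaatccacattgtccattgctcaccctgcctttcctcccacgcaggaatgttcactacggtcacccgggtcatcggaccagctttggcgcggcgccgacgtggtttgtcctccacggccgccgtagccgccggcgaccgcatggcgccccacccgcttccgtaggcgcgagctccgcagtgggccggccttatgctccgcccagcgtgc

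Sequencing depth cannot be read from TPM. The libraries held 12293 to 14341 genes at 1 TPM or more and 17177 to 31292 genes above 0 TPM, with low and high counts of the latter in each fraction and treatment. GFP-negative replicate 1 of clone C50 stood apart: nuclear OXPHOS genes made up 6.27% of its TPM and ribosomal protein genes 7.92%, against 3.03% to 4.71% and 3.71% to 5.91% in the other 21 libraries. Results that rest on it are given with and without it. Of 13 principal-cell markers, 10 had a mean of at least 1 TPM (Kcnj1, Elf5 and Scnn1b did not), and their sum was 656 to 3061 TPM in GFP-negative and 3230 to 10827 TPM in GFP-positive libraries. Aqp2 and Fxyd4 carried most of it, with means of 2201 and 649 TPM over the 22 libraries. Of 10 intercalated-cell markers, 4 passed 1 TPM (mostly Atp6v1b1 and Rhcg, at 59.1 and 25.8 TPM), with sums of 25.9 to 78.8 and 52.6 to 115 TPM in the GFP-negative and GFP-positive libraries, while the defining Foxi1 was at most 0.1 TPM and Slc4a1 at most 0.48 TPM. Proximal-tubule markers summed to 0.94 to 16.2 TPM, nearly all Lrp2, leukocyte markers, nearly all Cd68, to at most 12.9 TPM, and fibroblast and endothelial markers to at most 1.58 and 1.29 TPM.

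Nuclear OXPHOS genes were expressed at a median of 310 TPM (mean over the 22 libraries), 74 of 87 above 100 TPM and 8 above 1000 TPM. The highest was Atp5b, the catalytic beta subunit of ATP synthase, at 3175 TPM. Cox8a led complex IV at 1973 TPM, Uqcr11 complex III at 1560 TPM, Ndufb8 complex I at 1072 TPM and Sdhd, a membrane anchor of succinate dehydrogenase, complex II at 310 TPM. Assembly factors were lower, from Ndufaf8 at 198 TPM to Ndufaf4, an early complex I assembly factor, at 9.65 TPM, the lowest of all 94 genes. The nearest gene outside the threshold was Cox6c2, a copy of Cox6c, at 0.956 TPM, and the name rule left out Ndufa12-ps at 182 TPM.

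Of the isoform pairs of complex IV that differ between tissues, the forms typical of liver and kidney prevailed. Cox4i1, Cox6a1, Cox6b1 and Cox8a lay at 1486, 1647, 874 and 1973 TPM. Cox4i2, Cox6a2, Cox6b2, Cox8b and Cox8c lay between 0 and 0.266 TPM. Of the rarer forms only Cox7a1, the muscle form, passed 1 TPM, with 13.3 TPM against 461 TPM for Cox7a2 (34.6-fold). Ndufa4, counted here with complex IV, was at 784 TPM, and its hypoxia-responsive relative Ndufa4l2 at 0.13 TPM. The c-ring of ATP synthase is encoded by 3 genes for 1 mature protein, of which Atp5g3 was highest at 1078 TPM, followed by Atp5g1 at 428 and Atp5g2 at 210 TPM.

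**Figure D1:**
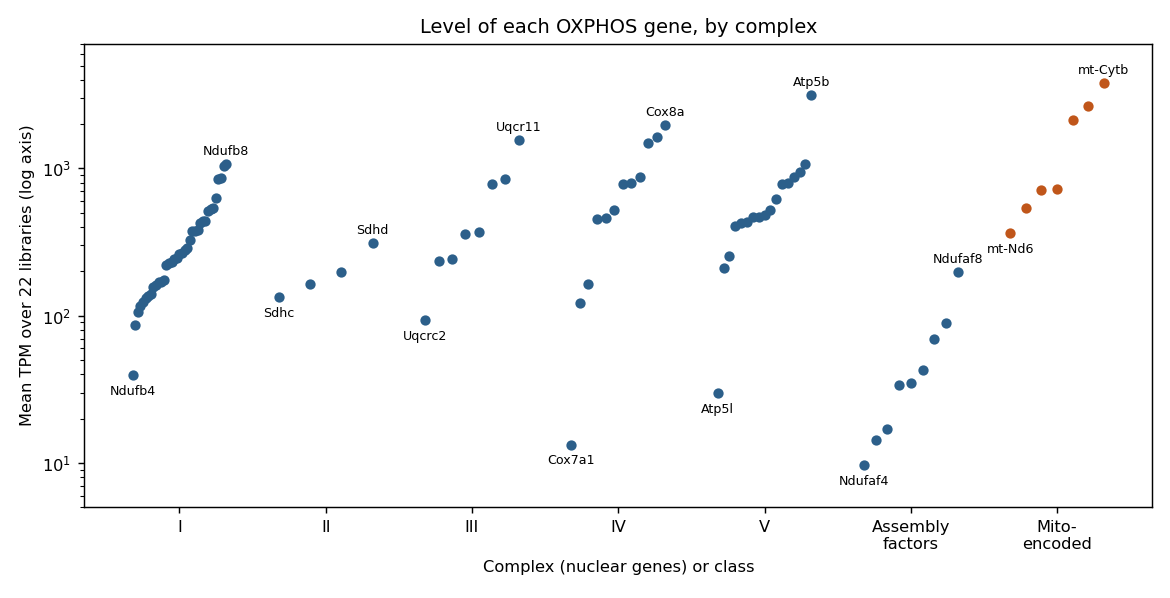
Mean TPM over 22 libraries (log axis) of the 87 nuclear genes by complex and of the 7 mitochondrially encoded genes, 1 point per gene, with the lowest and highest gene of each class named. ATP synthase spans Atp5l at 29.9 to Atp5b at 3175 TPM, and mt-Cytb at 3804 TPM is above every nuclear gene.

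Mitochondrial DNA encodes 13 OXPHOS subunits, and the table gives usable values for 7 of them. mt-Cytb, the only mitochondrially encoded subunit of complex III, was at 3804 TPM, mt-Nd1 at 2644 TPM and the catalytic complex IV subunit mt-Co1 at 2131 TPM. The complex I subunits mt-Nd4, mt-Nd2, mt-Nd5 and mt-Nd6 followed at 730, 714, 540 and 363 TPM. mt-Atp6, mt-Atp8, mt-Co2, mt-Co3 and mt-Nd4l were listed at 0 in all 22 libraries, and mt-Nd3 averaged 0.112 TPM. Every cell with mitochondria uses these genes, so a value of 0 in this table is not a measured absence. Complex V thus has no mitochondrially encoded gene here and complex IV only mt-Co1.

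Near-identical copies were sought with BLAST among GENCODE transcripts (at least 95% identity over at least 50% of the coding sequence). The coding sequences of mt-Co2, mt-Co3, mt-Atp6 and mt-Nd4l each had an annotated nuclear pseudogene with 100% identity (Gm28661, Gm28437, Gm10925 and Gm10222), and mt-Nd3 one with 99.7% (Gm28438). All 5 pseudogenes were also listed at 0. mt-Nd4 has a copy of 100% identity over 63.6% of its length and kept a value of 730 TPM, and no copy was found for mt-Atp8. Among the members searched, 26 of 93 had a copy, and in 3 of them the copies reached over 10% of the gene's own TPM: Ndufa12 (56.1%, the copy named Ndufa12-ps), Cox7a2l (38.5%) and Atp5l (33.4%). Their values are therefore uncertain.

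Summed over genes, the nuclear and mitochondrially encoded sets stood in opposite order in the 2 GFP fractions. The 7 mitochondrially encoded genes made up 0.756%, 1.01% and 1.18% of TPM (lowest, median and highest of 8) in GFP-negative libraries and 0.955%, 1.28% and 1.52% in GFP-positive libraries. The GFP-positive library was higher in 8 of 8 same-numbered pairs, although the 2 sets of libraries overlap. Replicate numbers are not stated to match libraries, so pair counts are a description and depend on the numbering. For mt-Nd1 in C50, as an example, GFP-negative replicate 2 (2757 TPM) was above GFP-positive replicate 1 (2557 TPM). The 87 nuclear genes made up 3.53%, 4.17% and 6.27% in GFP-negative and 3.42%, 3.74% and 4.16% in GFP-positive libraries, with the positive library lower in 7 of 8 pairs. Within the nuclear sum, complex II and complex V were lower in 8 of 8 pairs, complexes III and IV and the assembly factors in 7, and complex I in 5. In bulk RNA, a different share of cells with a high level cannot be told apart from a different level per cell.

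The ratio of the mitochondrially encoded to the nuclear sum was 0.150 to 0.301 in GFP-negative and 0.252 to 0.445 in GFP-positive libraries, higher in 7 of 8 pairs. The exception was pair 2 of clone C11, at 0.254 and 0.252. It depends on the numbering, as GFP-positive replicate 1 of C11 was at 0.292. In WT cells the ratio was 0.322, 0.276 and 0.218 without dDAVP and 0.215, 0.280 and 0.285 with it, which overlap.

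**Figure D2:**
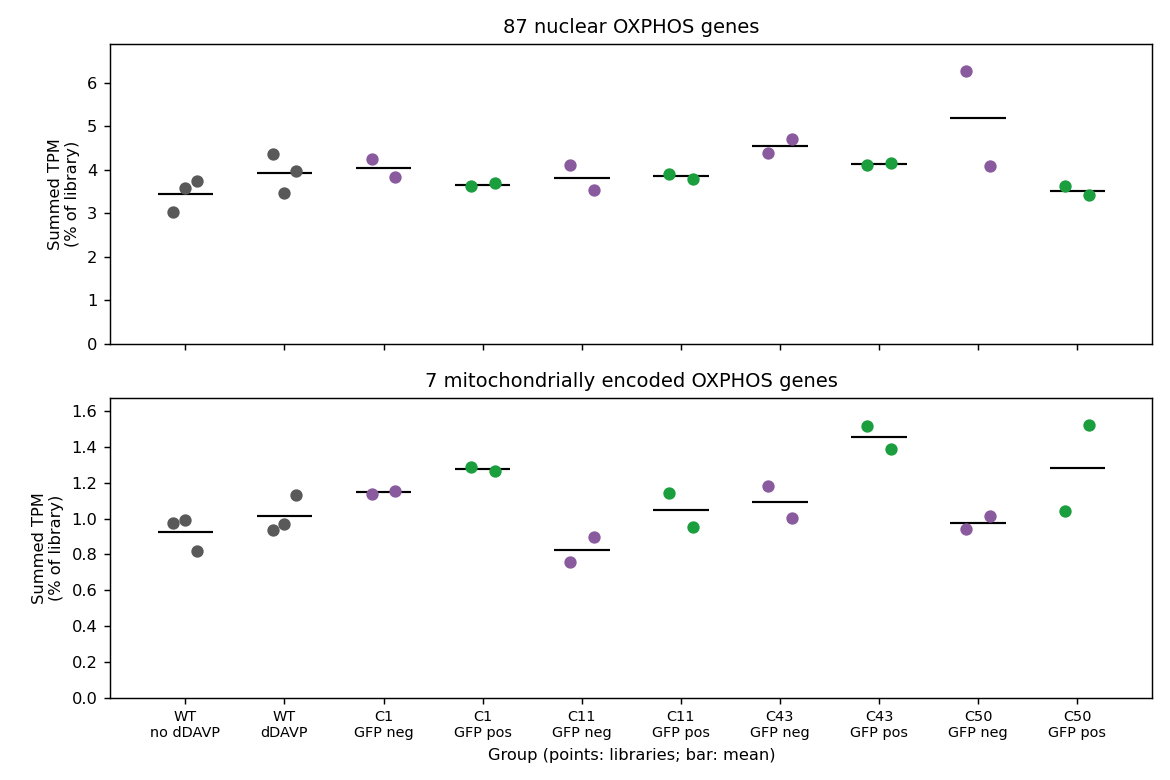
Summed TPM of the 87 nuclear (top) and 7 mitochondrially encoded (bottom) OXPHOS genes as a percentage of each library, by group, with points for libraries and a bar for the group mean. GFP-negative replicate 1 of C50 is alone at 6.27% in the top panel, and in the bottom panel the GFP-positive mean of each clone lies above its GFP-negative mean.

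The comparison of GFP-positive with GFP-negative cells asks which transcripts differ between cells with and without reporter signal, both labelled as given dDAVP. Whether dose and time were equal in the fractions is not known. Each gene was tested across the 16 clone libraries with the clone as covariate (limma, 13113 genes with a mean of at least 1 TPM, Benjamini-Hochberg adjusted p under 0.05), and all 94 OXPHOS genes were tested. A change is the difference of log2(TPM + 1), a scale on which low genes change less than their ratio. Of the 94 genes, 32 were called, against 35.3% of all genes tested. Mitochondrially encoded genes were higher in GFP-positive cells in 7 of 7, where 12.1% of all genes were. They are transcribed from the same mitochondrial DNA (above), so they are not 7 independent results. Nuclear genes were lower in 25 of 87 (28.7%), close to the 23.2% of all genes, and 0 of 87 were higher. The median change was 0.36 for mitochondrially encoded, -0.17 for nuclear and -0.06 for all genes tested. With clone means as replicates, so that each clone counts once per fraction, 5 of 7 mitochondrially encoded genes (5.93% of all genes higher; not mt-Nd2 and mt-Cytb) and 2 of 87 nuclear genes (12.4% lower; Ndufaf4 and Uqcrq) were called.

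Complex I holds 5 of the mitochondrially encoded genes, the subunits of its membrane arm. mt-Nd6, the only one of them on the light strand, was at 212, 316 and 457 TPM (lowest, median, highest of 8) in GFP-negative and 272, 472 and 605 TPM in GFP-positive libraries, a log2 change of 0.46 (SE 0.095, limma adjusted p 0.0016). mt-Nd5 was at 317, 453 and 734 TPM against 463, 693 and 799 TPM, a change of 0.45 (SE 0.10, limma adjusted p 0.00328). The 2 sets overlap, with the C1 libraries highest and the C11 libraries lowest on average in both genes. In same-numbered pairs mt-Nd6 was higher in 8 of 8 and mt-Nd5 in 7 of 8. mt-Nd4 went from 505, 685 and 795 TPM to 640, 848 and 1121 TPM, a change of 0.36 (SE 0.072, limma adjusted p 0.00116, 8 of 8 pairs). mt-Nd1 was at 1876, 2518 and 2848 TPM against 2172, 3019 and 3780 TPM (log2 change 0.30, SE 0.079, limma adjusted p 0.0075, 8 of 8 pairs). mt-Nd2, higher in 6 of 8 pairs, was at 471, 704 and 797 TPM against 516, 792 and 1146 TPM (0.30, SE 0.099, limma adjusted p 0.0273).

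mt-Co1 was at 1546, 1900 and 2278 TPM in GFP-negative and 2184, 2498 and 3063 TPM in GFP-positive libraries, a change of 0.39 (SE 0.078, limma adjusted p 0.00134, 8 of 8 pairs). Its GFP-negative values reach into the range of the positive ones only through C43 replicate 1 and C1 replicate 1, at 2191 and 2278 TPM. mt-Cytb, the most abundant, was at 2633, 3582 and 4420 TPM against 3274, 4217 and 5408 TPM (0.26, SE 0.088, limma adjusted p 0.0312, 8 of 8 pairs). With quantile normalization 5 of 7 were called (19.5% of all genes higher). mt-Cytb (-0.0082, limma adjusted p 0.96) and mt-Nd1 (0.09, limma adjusted p 0.455) were not, and mt-Cytb alone changed its sign. All 7 were called after median-ratio scaling (18.2% of all genes higher), and all 7 without GFP-negative replicate 1 of C50 (13.4%). Without C43, 4 of 7 were called (9.06% of all genes higher). In the 8 libraries with fewer genes above 0 TPM 0 of 7 were called (0.751% of all genes higher), with a median change of 0.28. There, 5 had an unadjusted p under 0.05 by limma. Among the 8 with more, 7 of 7 were called (8.08% of all genes higher), with a median of 0.53. The 2 sets differ in more than this number. The one with fewer holds no GFP-negative library of C11 and includes GFP-negative replicate 1 of C50. The one with more holds no GFP-negative library of C1. The principal-cell sum, mostly Aqp2 and Fxyd4, was higher in every GFP-positive library than in any GFP-negative one, and the intercalated-cell sums overlap (above). Their part in these differences was not tested.

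**Figure D3:**
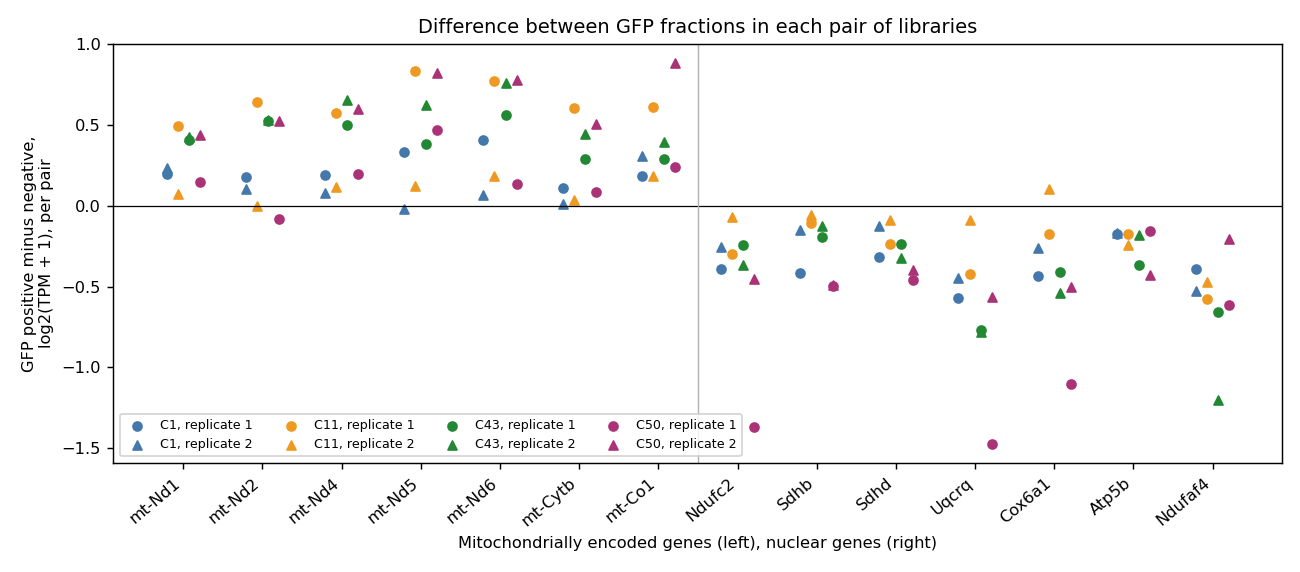
Difference of log2(TPM + 1) between the GFP-positive and the GFP-negative library of the same clone and replicate number, for the 7 mitochondrially encoded genes and 7 nuclear genes with called falls, coloured by clone and shaped by replicate number. Of the mitochondrially encoded genes, mt-Nd2 (2 pairs) and mt-Nd5 (1 pair) have a point below 0, and C50 replicate 1 gives the lowest point of Uqcrq and Cox6a1.

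In complex II, which has no mitochondrially encoded subunit, 2 of 4 genes were lower (23.2% of all genes). Sdhb, the iron-sulfur subunit, was at 189, 217 and 240 TPM in GFP-negative and 151, 180 and 216 TPM in GFP-positive libraries, a fall of log2 -0.26 (SE 0.063, limma adjusted p 0.00575). The anchor Sdhd was at 301, 349 and 413 TPM against 240, 288 and 336 TPM, -0.27 (SE 0.051, limma adjusted p 0.000771). Both were lower in 8 of 8 pairs, though the ranges of the 2 fractions overlap. The catalytic Sdha (161 ± 27.1 against 161 ± 11.8 TPM, SD, n = 8) and the anchor Sdhc (135 ± 8.27 against 131 ± 18.9 TPM, SD, n = 8) were not called, with log2 changes of 0.01 (SE 0.10, limma adjusted p 0.936) and -0.06 (SE 0.065, limma adjusted p 0.546). With all libraries, Sdha was lower in 6 of 8 pairs. Its value rests on GFP-negative replicate 1 of C50, its lowest library at 101 TPM: without it the change was -0.08 (limma adjusted p 0.252).

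In complex I, 9 of 37 nuclear genes were lower, a share near the 23.2% of all genes, with a median of -0.18. The largest falls were in 3 accessory subunits, Ndufc2 (127 ± 39.8 to 91.5 ± 8.50 TPM, SD, n = 8, log2 change -0.43, SE 0.12, limma adjusted p 0.009), Ndufs6 (-0.39) and Ndufa12 (-0.33). In the GFP-negative libraries Ndufc2 was 94.6 to 132 TPM in 7 and 220 TPM in C50 replicate 1, and in the GFP-positive libraries 81.4 to 106 TPM, so the lower GFP-negative libraries overlap with them. Of the 8 nuclear genes of complex III only Uqcrq, a small accessory subunit, was lower, at 729, 906 and 1608 TPM against 526, 621 and 734 TPM (log2 change -0.64, SE 0.14, limma adjusted p 0.0019, 8 of 8 pairs). It was the largest change of any OXPHOS gene with all libraries, while without GFP-negative replicate 1 of C50 Ndufaf4 (-0.61) was ahead of Uqcrq (-0.51). C11 replicate 2 is the only GFP-negative library of Uqcrq below the highest GFP-positive one.

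Complex IV had 4 of 12 nuclear genes lower (23.2% of all genes) and a median of -0.23. Cox6a1, the ubiquitous form of subunit VIa, was at 1488, 1869 and 2820 TPM against 1197, 1447 and 1629 TPM (-0.42, SE 0.11, limma adjusted p 0.00857, 7 of 8 pairs), followed by Ndufa4 (-0.40), Cox4i1 (-0.24) and Cox5a (-0.22). Only the GFP-negative library of C11 replicate 2 lies among the GFP-positive values of Cox6a1. The highest gene of the complex, Cox8a, was not called (2193 ± 655 against 1998 ± 397 TPM, SD, n = 8). In complex V, 5 of 17 were lower (23.2% of all genes), with Atp5j2 (-0.47), Atp5k (-0.45), Atp5d (-0.25), a subunit of the central stalk, Atp5o (-0.24) and Atp5b. Atp5b fell in 8 of 8 pairs, from 2689, 3382 and 4071 TPM to 2387, 2918 and 3321 TPM (-0.24, SE 0.043, limma adjusted p 0.000594). The 2 sets overlap, and C1 was low in both fractions. Of the assembly factors, 4 of 9 were lower (23.2% of all genes): Ndufaf4 from 9.70, 10.7 and 15.6 TPM to 6.0, 7.25 and 9.54 TPM, without overlap (-0.58, SE 0.11, limma adjusted p 0.00078), Ndufaf2 (-0.50), Ndufaf6 (-0.39) and Ndufaf1 (-0.25).

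Over all 94 genes, 21 changed sign in no pair (5 higher and 16 lower in 8 of 8 pairs), against 24.7% of all genes (8.88% and 15.8%). The nuclear count moved more with median-ratio scaling than the mitochondrially encoded count did. Leaving out 1 library gave 19 to 35 nuclear genes called lower and 5 to 7 mitochondrially encoded genes called higher. After median-ratio scaling, which shifts the median of all genes from -0.06 to 0.01, Ndufaf4 and Uqcrq remained called lower, and the 7 mitochondrially encoded genes higher. The split of calls over all genes moved with it, from 1582 of 4626 higher to 2382 of 4676. Without GFP-negative replicate 1 of C50, 35 nuclear genes were called lower and 3 higher (Ndufa5, Ndufb11 and Ndufv3). Calls over all genes also rose in number there, to 32.6% lower and 13.4% higher, and the nuclear median was -0.10 against -0.11 for all genes. The 8 libraries with more and the 8 with fewer genes above 0 TPM differ in the clones that have both fractions (above). Among the 8 with more, the nuclear median was -0.08 against -0.11 for all genes. Atp5b, Ndufaf4 and Sdhd were called lower there (21.8% of all genes). Among the 8 with fewer it was -0.32 against 0.00. There 0 were called (1.21% of all genes lower), and 27 had an unadjusted p under 0.05 by limma.

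OXPHOS transcripts are short, with a median of 1141 nt against 3009 nt for the expressed genes. With transcript length and GC content taken out in each library, the nuclear median was -0.08 against 0.01 for all genes, with 14 of 87 called lower (20.1% of all genes) and Uqcrc2 higher (21.8%), and the mitochondrially encoded median was 0.39.

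**Figure D4:**
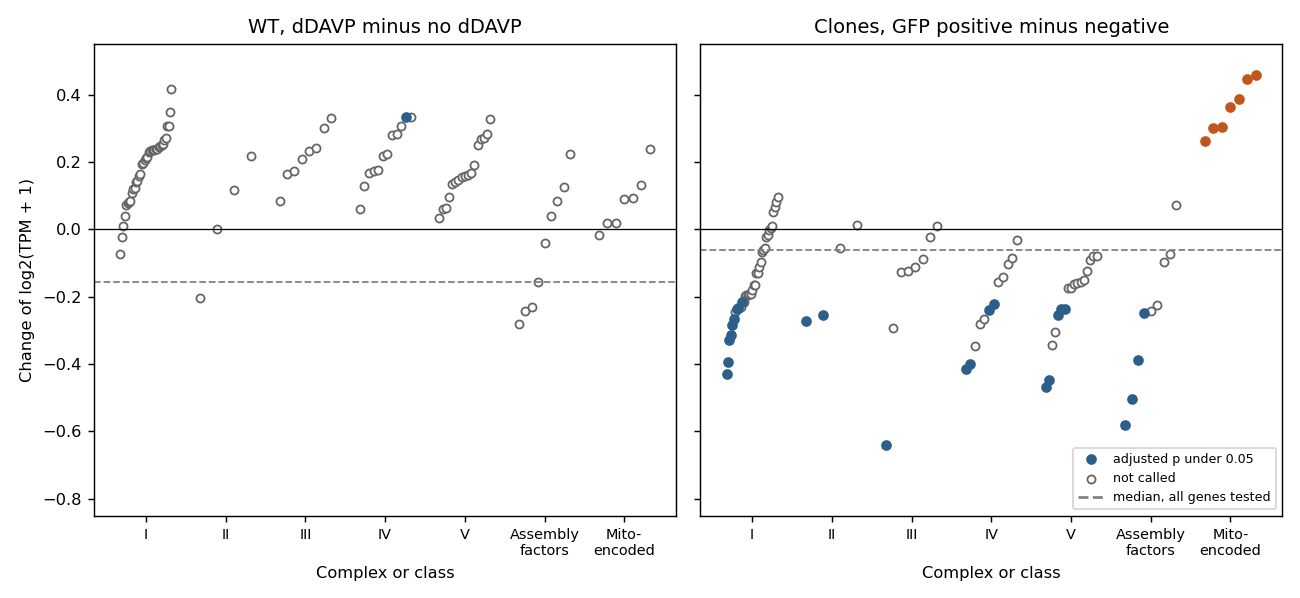
Change of log2(TPM + 1) of each of the 94 genes by complex or class, for dDAVP in WT cells (left) and GFP-positive against GFP-negative cells (right), with filled points for adjusted p under 0.05 and a dashed line at the median of all genes tested. At left most genes lie above the line at -0.16 and 1 is called, and at right the 7 mitochondrially encoded genes lie between 0.26 and 0.46 while called nuclear genes reach -0.64.

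Within single clones the mitochondrially encoded genes had a positive change in 7 of 7 in each of the 4 clones, with medians of 0.16, 0.35, 0.50 and 0.40 in the order C1, C11, C43, C50. The nuclear medians were -0.14, -0.02, -0.11 and -0.48, and 40 of 87 nuclear genes had a negative and 0 a positive change in all 4. Of all genes tested, 27.2% were negative and 16.2% positive in all 4 clones, and 40.5%, 35.2%, 34.7% and 55.5% were positive in C1, C11, C43 and C50. After median-ratio scaling the nuclear medians of C11 and C43 were 0.13 and 0.08, those of C1 and C50 -0.06 and -0.57. Single libraries moved these medians by over 1.5-fold. The mitochondrially encoded median was 0.09 in C1 without GFP-positive replicate 1, 0.23 in C11 without GFP-positive replicate 1 and 0.18 in C50 without GFP-positive replicate 2. The nuclear median of C1 was -0.08 without GFP-negative replicate 1. That of C11 took either sign, at 0.09 and -0.09 without GFP-negative replicates 1 and 2 and 0.01 and -0.03 without GFP-positive replicates 2 and 1. By limma's test within C1, 0 of 94 genes were called (7.22% of all genes, 2.31% higher and 4.91% lower), and within C11 also 0 (7.94%, 2.23% higher and 5.70% lower), each with 7 at an unadjusted p under 0.05. In C43 there were 4 (16.3% of all genes), mt-Nd4 and mt-Nd6 higher (4.29%) and Atp5b and Ndufaf4 lower (12.0%). There were 0 in C43 without its GFP-negative or its GFP-positive replicate 2 (9.09% and 8.86% of all genes) and 1 without its GFP-negative replicate 1 (6.58%). Without GFP-negative replicate 1 or 2 of C50 there were 14 (29.6% and 29.8%).

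Clone C50 had 41 called genes (26.6% of all genes), 3 mitochondrially encoded higher (mt-Nd4, mt-Nd5 and mt-Co1, against 12.8% of all genes) and 38 nuclear lower (against 13.8%). They included 12 of 17 nuclear genes of complex V, 7 of 12 of complex IV and 12 of 37 of complex I. Without its GFP-negative replicate 1, the nuclear median of C50 went from -0.48 to -0.20, against -0.09 for all genes. Without its other GFP-negative library the nuclear median was -0.78, against 0.27 for all genes. Without GFP-positive replicates 1 and 2 it was -0.52 and -0.44, against 0.08 for all genes in both. In its GFP-negative replicate 1, Ndufa4, Uqcrq and Cox8a were at 1443, 1608 and 3278 TPM, the highest of all GFP-negative libraries, whereas Sdha was lowest, at 101 TPM against 146 to 186 TPM in the other 7.

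**Figure D5:**
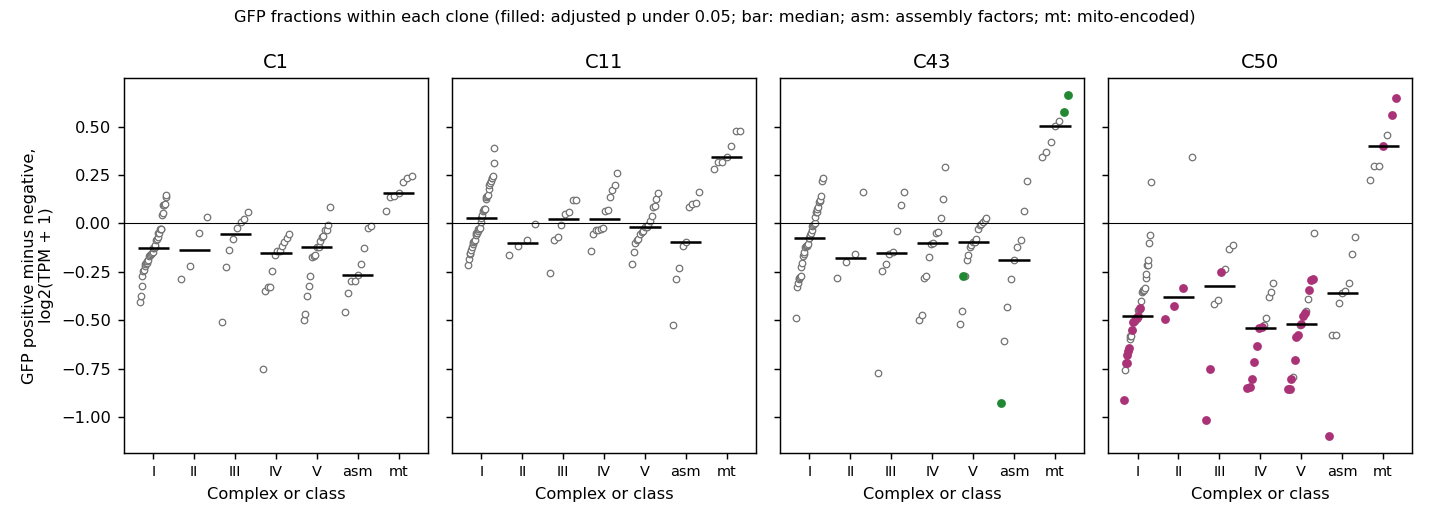
GFP-positive minus GFP-negative difference of log2(TPM + 1) for each OXPHOS gene within clones C1, C11, C43 and C50, by complex or class, with filled points for adjusted p under 0.05 and a bar at the class median. The median of the mitochondrially encoded genes lies above 0 in each clone, and those of the nuclear complexes lie furthest below 0 in C50.

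Whether the fraction difference itself depended on the clone was tested by interaction. Of the 94 genes, 0 were called (0.869% of all genes by limma), and 5 had an unadjusted p under 0.05. The highest F values were those of Sdhc, Ndufb8 and Cox7b, with limma adjusted p of 0.266, 0.299 and 0.334. Without GFP-negative replicate 2 of C50, which leaves the library that stands apart as the only one of its group, 61 of 94 were called (38.6% of all genes), and without replicate 1 there were 0 (2.49%). The differences between C50 and the other clones seen in the single-clone counts were thus not called as differences in themselves with all libraries.

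Levels differed between clones in 34 of 94 genes (31.6% of all genes by limma's F-test), 29 nuclear and 5 mitochondrially encoded. Ndufv1, the NADH-binding subunit of complex I, had the highest F (limma adjusted p 1.12e-05). Its GFP-negative and GFP-positive libraries were at 564, 541, 540 and 544 TPM in C1 and between 295 and 383 TPM in the other 3 clones, which do not overlap with C1. WT cells lay at 325 to 356 TPM. Atp5d was lowest in C1 with a mean of 512 TPM, against 819, 922 and 907 TPM in C11, C43 and C50 (limma adjusted p 0.000193). Atp5b was also lowest in C1, at 2545 TPM against 3155, 3579 and 3252 TPM (limma adjusted p 0.000399).

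Of the 29 nuclear genes, 19 had their lowest mean in C1 and 19 their highest in C43. All 5 mitochondrially encoded genes (mt-Nd1, mt-Nd2, mt-Nd4, mt-Nd5 and mt-Nd6) were lowest in C11, with mt-Nd6 at 272 TPM there and 493, 418 and 361 TPM in C1, C43 and C50. The count of differing genes was 21 and 22 without GFP-positive replicate 1 and GFP-negative replicate 2 of C1 (21.7% and 24.4% of all genes). It was 64 without GFP-negative replicate 1 of C50 and 83 without replicate 2 (47.2% and 60.8%).

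The comparison of WT cells with and without dDAVP asks which transcripts move with V2-receptor stimulation. Of 94 OXPHOS genes, all tested, 1 was called higher (2.37% of 13494 genes) and 0 lower (6.51%), against 8.88% in either direction, and 11 had an unadjusted p under 0.05. The called gene was Cox5a, a nuclear subunit of complex IV, at 376, 400 and 436 TPM without and 536, 474 and 516 TPM with dDAVP. Each dDAVP library lies above the untreated ones, and the log2 change was 0.33 (SE 0.081, limma adjusted p 0.0473). Cox5a kept the call in 6 of 17 alternatives (limma adjusted p 0.016 to 0.191 over the 17). It lost it in 5 of 6 fits that left out 1 library, with median-ratio scaling, quantile normalization, every gene of any TPM, no mean-variance trend and the replicate block, and in the 4 libraries with more genes above 0 TPM.

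A small upward lean was spread over the nuclear genes. The change was positive in 78 of 87 nuclear and 6 of 7 mitochondrially encoded genes, against 29.6% of all genes, and the medians were 0.17 and 0.09, against -0.16 for all genes. The nuclear median was 0.09 and 0.10 without replicate 1 of the untreated and of the dDAVP libraries, and 0.28 without dDAVP replicate 2. The mitochondrially encoded median was 0.15 without replicate 1 of either group, 0.01 without untreated replicate 3 and -0.03 without dDAVP replicate 3, so its sign rests on single libraries. Nuclear genes of complexes III, IV and V were positive in 8 of 8, 12 of 12 and 17 of 17, of complex I in 35 of 37, of complex II in 2 of 4 and assembly factors in 4 of 9. The library groups did not overlap in 16 of 94 genes, against 35.8% of all genes. Median-ratio scaling, which brings the median of all genes to 0.00, gave 0.35 for the nuclear and 0.26 for the mitochondrially encoded genes, quantile normalization 0.15 and -0.07, and the length and GC correction 0.16 and 0.02. The nuclear sums, 3.03%, 3.58% and 3.75% without and 4.37%, 3.46% and 3.98% with dDAVP, overlap, and ribosomal protein shares ran from 3.71% to 4.78% and from 4.52% to 5.91%. Principal-cell marker sums were 994 to 1095 TPM without and 3933 to 4390 TPM with dDAVP, and intercalated-cell sums 141 to 144 and 142 to 173 TPM, above those of every clone library. The part of these markers in the OXPHOS values was not tested.

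mt-Cytb had the largest change of the mitochondrially encoded genes under dDAVP, at 3258, 3360 and 2756 TPM without and 3445, 3578 and 4029 TPM with it, without overlap but not called (log2 change 0.24, limma adjusted p 0.146). mt-Nd5 (459 ± 63.0 against 452 ± 57.0 TPM, SD, n = 3) and mt-Co1 (1871 ± 168 against 1901 ± 234 TPM, SD, n = 3) differed by less than their spread. In complex II, Sdha was at 192, 184 and 175 TPM without and 149, 167 and 162 TPM with dDAVP, and Sdhb at 167, 178 and 187 against 223, 191 and 206 TPM. They lean in opposite directions without overlap, at -0.20 and 0.22, and neither was called (limma adjusted p 0.116 and 0.126). With the number of genes above 0 TPM as a covariate 16 OXPHOS genes were called, 15 higher (3.95% of all genes) and Sdha lower (16%).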

How the data were processed

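RNA-seq libraries (22 in 10 groups, groups and replicate numbers from the labels) were made with the SMART-Seq HT and Nextera XT kits and sequenced paired-end, per the labels' protocols. The authors deposited TPM per gene and library. STAR and RSEM are named in the submitters' processing notes, while settings, genome build and annotation are not given in the sources used here. TPM keeps no depth, so the depth per library is unknown and precision rests on the spread of replicates. Lines that share a symbol (79 symbols) were summed. A column of highest values (1 in number) was not used.

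Linear models on log2(TPM + 1), a pseudocount of 1, were fitted with limma 3.58.1 in R 4.3.3 to all genes with a mean of at least 1 TPM in the comparison, with a mean-variance trend, two-sided tests and Benjamini-Hochberg adjustment (adjusted p under 0.05), and tested on simulated data. dDAVP used the 6 WT libraries, GFP the 16 clone libraries with clone as covariate, and single clones, interaction and clone differences a model with 1 mean per clone and fraction. Copies were searched with BLAST 2.17.0 in GENCODE transcripts, and Python 3.11.15 was used for sums and motifs.

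Genes and lists were chosen with earlier results of these data known. Named nuclear genes are the highest of each complex, up to 3 called falls and 3 called rises per complex and comparison, complex II, isoform families and the 3 highest interaction and clone F values. Exceptions (rest of a count of 5 or fewer, genes called only under an alternative, genes with copies) were chosen after their values were seen, as were the alternatives that split libraries by genes above 0 TPM. Alternatives comprised pseudocount, filter, scaling, moderation, covariates, clone means as replicates, a replicate block and left-out libraries or clones.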

Additional observations from a re-analysis of the deposited data

How the results depend on the processing

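Unless a value follows, counts of called OXPHOS genes stayed within 1.5-fold of those reported. For GFP-positive against GFP-negative cells, 32 were called, 25 nuclear lower and 7 mitochondrially encoded higher. Total and nuclear lower counts follow, with the shares of all genes called and called lower in brackets (35.3% and 23.2% in the main fit). They were 20 and 15 with every gene of any TPM (9.24% and 6.29%) and 9 and 2 with median-ratio scaling (35.7% and 17.5%). Clone means as replicates gave 7 and 2 (18.3% and 12.4%). Leaving out clone C1 gave 21 and 15 (28.7% and 18.8%). Leaving out clone C43 gave 14 and 10 (25.5% and 16.5%), with 4 mitochondrially encoded. The 8 libraries with fewer genes above 0 TPM gave 0 and 0 (1.96% and 1.21%), with 0 mitochondrially encoded. The 8 with more gave 10 and 3 (29.9% and 21.8%). The nuclear count was 14 with the length and GC correction (20.1% lower). Leaving out 1 library gave 24 to 45 in all, 19 to 35 nuclear lower and 5 to 7 mitochondrially encoded higher. The change of mt-Cytb reversed to -0.0082 with quantile normalization.

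For dDAVP (1 called), 16 were called with the number of genes above 0 TPM as covariate, and 0 with every gene of any TPM, median-ratio scaling, quantile normalization, no mean-variance trend, the replicate block and the 4 libraries with more genes, and 0 to 5 with 1 library left out. Counts within clones follow with the share of all genes called in brackets. C50 (41, 26.6%) gave 17 with every gene of any TPM (5.68%) and 21 with median-ratio scaling (29.2%). It gave 27 with no trend (25.3%) and 24 with the length and GC correction (31.0%). C43 (4, 16.3%) gave 2 with every gene of any TPM (3.34%), 11 with quantile normalization (17.6%) and 2 with no trend (15.1%). C1 (0) gave 1 with quantile normalization (8.57%) and C11 (0) gave 2 with the length and GC correction (12.0%). Leaving out 1 library gave 0 to 9 in C1, 0 to 2 in C11, 0 to 14 in C43, 6 to 77 in C50, 0 to 61 for the interaction and 21 to 83 for clone differences (34, and 18 with median-ratio scaling). A group left with 1 library is assumed to vary like the others. Where no value shows otherwise, the cause was not tested.

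The labels do not state whether replicate numbers pair the libraries, and correlations over so few libraries cannot settle it. Deviations of same-numbered libraries correlated at -0.21, -0.03 and -0.10 in WT cells. In C1, C11, C43 and C50 they correlated at 0.05, 0.01, 0.21 and 0.09. The replicate block gave 32 called GFP genes, 31 of them shared with the fit without it. For genes named by the rule, 140 values over all alternatives lost their call, 4 gained one and 1101 kept their side of the threshold. Depth is unknown, so no limit from counting can be given, and 2 or 3 libraries per group bound the precision.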

Other observations

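Genes around the respiratory chain were read from 4 lists, with names picked after their values were seen. In GFP-positive cells, tricarboxylic acid cycle and pyruvate dehydrogenase genes (18 tested) were called lower in 6 and higher in 3 (23.2% and 12.1% of all genes), with a median of -0.08 against -0.06 for all genes. Mdh2, the mitochondrial malate dehydrogenase, fell from 589 ± 57.9 to 377 ± 41.2 TPM (SD, n = 8, log2 change -0.64, SE 0.055, limma adjusted p 8.26e-07), and citrate synthase Cs (-0.40) and Idh3a (-0.42) also fell, each in 8 of 8 pairs. Pdha1, a subunit of pyruvate dehydrogenase, rose from 60.9 ± 11.0 to 87.7 ± 11.8 TPM (SD, n = 8, 0.53, limma adjusted p 0.00148). Of 16 carriers and exits of the chain 4 were higher and 3 lower (12.1% and 23.2% of all genes), with Ucp2, an inner-membrane carrier, up from 211 ± 35.3 to 327 ± 106 TPM (SD, n = 8, 0.59, limma adjusted p 6.47e-05). Cytochrome c (Cycs, -0.49) and Cyc1 (-0.45), a complex III subunit that the name search does not take in, were lower in 8 of 8 pairs.

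Of 20 genes for mitochondrial transcription, replication and biogenesis, 5 were called, each lower in the GFP-positive fraction, a share near the 23.2% of all genes. They were Tfam, a packaging and transcription factor of mitochondrial DNA (64.3 ± 3.15 to 50.8 ± 5.67 TPM, SD, n = 8, log2 change -0.34, limma adjusted p 0.00141), Polrmt, the mitochondrial RNA polymerase (-0.53), Polg (-0.53), Gabpb1 (-0.44) and Ssbp1 (-0.30). Of 39 assembly factors outside the name search, 12 were lower (23.2% of all genes), among them the mt-Co1 translation factor Taco1 (-0.67), and 3 higher (12.1%), Surf1, Coa3 and Coa4. Under dDAVP in WT cells these 4 lists had 3 calls, a smaller share than the 8.88% of all genes: the coactivator Ppargc1b (-0.80) and Ttc19 (-0.54) lower and Sdhaf1 (0.53) higher.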
